A study of Mus musculus with 8 samples.

Results

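The 9 genes described here, Iapp, Ucn3, Ins1, Ins2, Ppy, Slc30a8, G6pc2, Abcc8 and Kcnj11, are best known from pancreatic islets, and their RNA was measured in fetal mouse small intestine. They were chosen by gene name, as every non-control probe of the array that carries one of these names, which gave 11 probes among 55681, for 9 of 36161 distinct names. Abcc8 and Kcnj11 had 2 probes each and the others 1. Whole small intestine was taken at E18.5, shortly before birth, from 4 controls and 4 mutants, with 1 array for each. Control replicates 1, 3 and 4 were Rfx6 fl/+ and control replicate 2 was Rfx6 fl/fl, so all 8 embryos carried at least 1 floxed Rfx6 allele. The mutants were Rfx6 fl/fl Ngn3-cre, in which Cre recombinase is driven by Ngn3, a gene of endocrine progenitors. No control carried Cre by its label, so Cre itself and the loss of Rfx6 cannot be told apart. The comparison asks which of these genes depend on Rfx6, a transcription factor of endocrine cells in both gut and pancreas. For mutant replicates 2, 3 and 4 the description field gives a different Rfx gene, whereas titles and source names say Rfx6 and were followed.

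In a pancreatic beta cell, glucose is taken up and broken down, and the rising energy charge closes a potassium channel built from Kcnj11 and Abcc8 subunits. The membrane then depolarises, calcium enters, and granules release insulin with amylin, the product of Iapp. Endocrine cells of the gut are scattered singly in the epithelium, arise from Ngn3-expressing progenitors as islet cells do, and use much of the same machinery to release other hormones.

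Levels are given as the log2 intensity of a probe minus the log2 of the 75th percentile of its array, so 0 is the 75th percentile and each unit is a doubling. Differences are the mutant mean minus the control mean on that scale. The 75th percentile was 788 to 1027 intensity units. The scanner software called 59.7% to 69.9% of the probes on an array well above background. Mutant replicate 1 stood apart: averaged over its pairings with the remaining arrays, its correlation was 0.975, whereas the other arrays reached 0.989 to 0.990. The Rfx6 probe was at -3.23 ± 0.23 in controls and -3.73 ± 1.20 in mutants (SD, n = 4 each, limma adjusted p = 0.828) and does not check the labels. Mutant replicate 1 was at -5.52 and the other mutants at -3.37 to -3.02. Whether it lies in the deleted part is not known from the labels. Of 7 intestinal epithelium markers (Cdx2, Vil1, Fabp2, Apoa4, Lgals4, Muc2 and Lgr5) all were well above background on all 8 arrays and 0 passed the test.

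A probe was tested when it was well above background on at least 4 of the 8 arrays, whatever the group. This held for 6 of the 11 member probes, those of Iapp, Ucn3, Ins1, Ins2 and Abcc8, and for 35472 probes in all. None of the 6 passed limma at a Benjamini-Hochberg adjusted p of 0.05 over all tested probes, against 0.0423% of all tested probes (0.0395% lower, which is 14 probes, and 0.00282% higher, which is 1). Without adjustment 5 of the 6 had p under 0.05, against 5.05% of all tested probes. In 3 of the 6 every mutant array lay below every control array, against 1.56% of all tested probes (4.38% without overlap in either direction). The 6 were retained by a rule that needs signal, so these counts describe the tested probes and not the 9 genes.

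**Figure D1:**
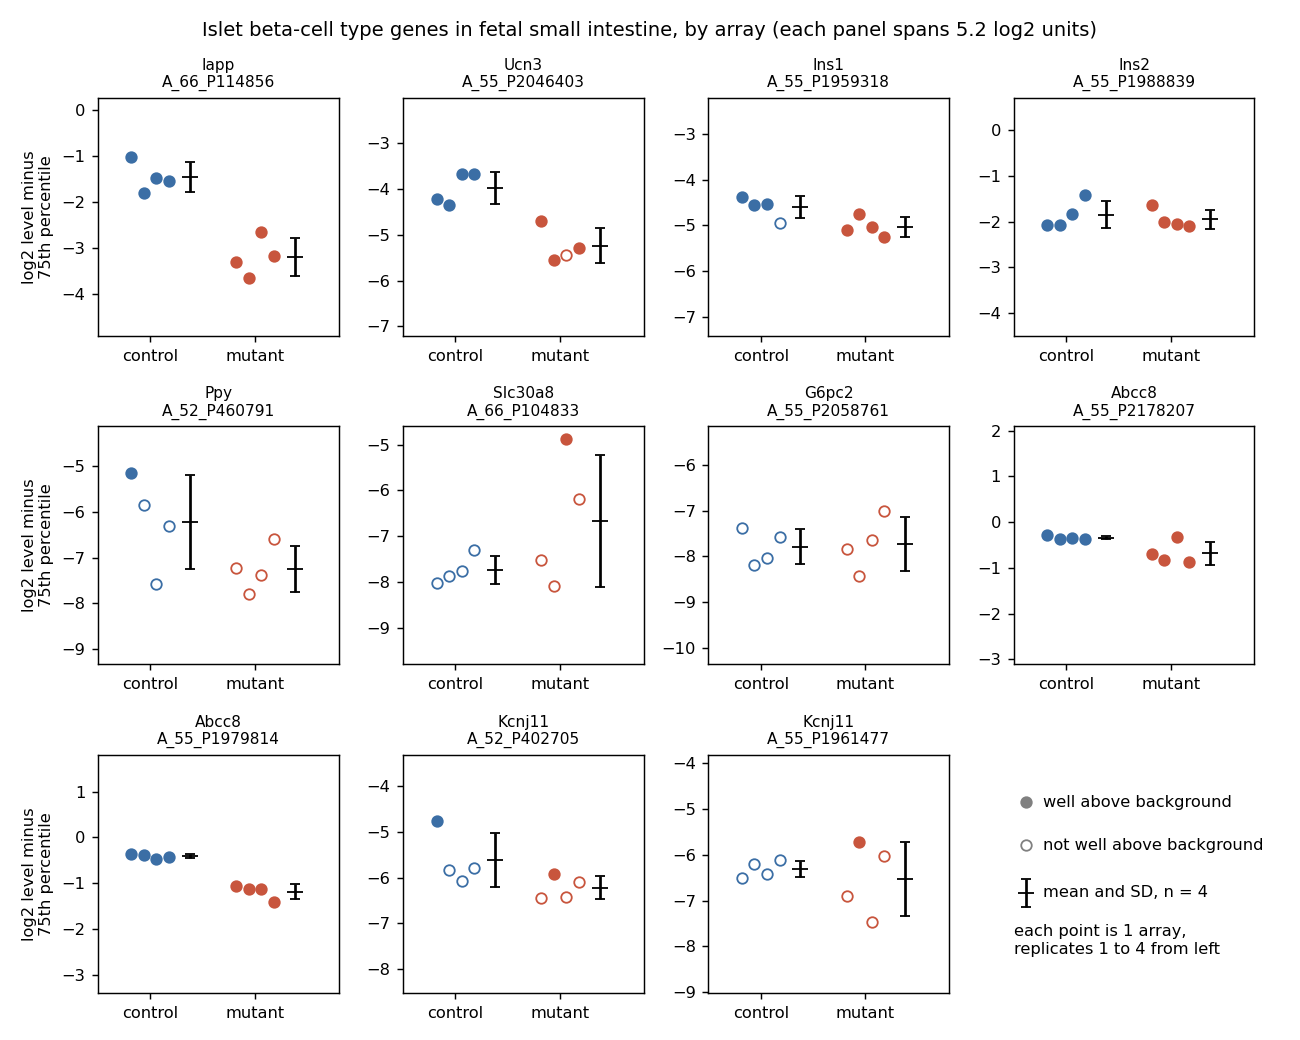
Level of each of the 11 probes on each of the 8 arrays (vertical axis, log2 intensity minus the log2 75th percentile of the array; filled points are well above background, open points are not; bars are the mean and SD of 4 arrays). The groups separate for Iapp, Ucn3 and the Abcc8 probe A_55_P1979814, while Ppy, Slc30a8, G6pc2 and Kcnj11 lie mostly at background.

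Iapp encodes amylin, a peptide stored and released with insulin, and had the largest difference among the tested probes of these genes. Its probe lies on chromosome 6 of mm9, the build of all probe positions here, at 142252275 to 142252334. The level in controls was -1.01, -1.81, -1.47 and -1.55 in replicates 1 to 4, and in mutants -3.31, -3.65, -2.64 and -3.17. The groups did not overlap, with control replicate 2 the lowest control and mutant replicate 3 the highest mutant. The means were -1.46 ± 0.33 and -3.19 ± 0.42 (SD, n = 4 each), a difference of -1.74 (SE 0.24, 95% interval -2.27 to -1.20), or 3.33-fold lower. The probe ranked 22 of 35472 by p, and limma gave an adjusted p of 0.0885, which is not under 0.05. It was well above background on all 4 mutant arrays, so RNA was still detected there. Within slide row 1 (replicates 1 and 2 of each group) the difference was -2.07 and within row 2 it was -1.40, with 2 arrays a group and no test. Without mutant replicate 1 it was -1.70 (adjusted p 0.183). The RNA came from whole intestine, so fewer cells that make a transcript and less of it per cell cannot be told apart, here and below.

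Ucn3 encodes urocortin 3, a peptide of the corticotropin-releasing hormone family that mature beta cells release and that acts on the receptor Crhr2, and its probe lies on chromosome 13 at 3940178 to 3940237. Its level was -4.23, -4.34, -3.67 and -3.67 in control replicates 1 to 4 and -4.70, -5.56, -5.43 and -5.30 in mutant replicates 1 to 4. All mutants lay below all controls, and mutant replicate 1 came closest to them. The difference was -1.27 (SE 0.23, 95% interval -1.80 to -0.74, limma adjusted p = 0.318), or 2.41-fold lower, and the probe ranked 53 of 35472 by p. It was well above background on all 4 controls and on 3 of 4 mutants, the exception being replicate 3. Within slide rows 1 and 2 the difference was -0.84 and -1.69, and without mutant replicate 1 it was -1.45 (adjusted p 0.118). With normexp background correction, which added an offset of 50 intensity units, the difference was -0.44 (adjusted p 0.765). With the authors' deposited values it was also -0.44 (0.649). Such an offset shrinks a log2 difference at low signal, and the intensity of this probe was 18.7 to 78.5 units.

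Because Iapp and Ucn3 were both lower in each mutant array than in any control, the 250 bases before their transcription starts are shown, with those of Ins1, an islet gene of the same set without such a gap. The sequences are RefSeq's on GRCm38.p6, read 5′ to 3′ on the gene's strand. Capitals mark CATCTG, an E box of the kind that NEUROD1 binds in the insulin genes, and GTTGCC, the core of RFX binding sites, each in either orientation.
Iapp, chr6:142298175-142298424, plus strand: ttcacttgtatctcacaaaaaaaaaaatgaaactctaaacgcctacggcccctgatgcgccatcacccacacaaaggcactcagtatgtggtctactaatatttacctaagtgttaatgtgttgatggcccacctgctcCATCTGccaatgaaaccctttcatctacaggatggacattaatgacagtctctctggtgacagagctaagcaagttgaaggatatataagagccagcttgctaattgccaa
Ucn3, chr13:3945350-3945599, minus strand: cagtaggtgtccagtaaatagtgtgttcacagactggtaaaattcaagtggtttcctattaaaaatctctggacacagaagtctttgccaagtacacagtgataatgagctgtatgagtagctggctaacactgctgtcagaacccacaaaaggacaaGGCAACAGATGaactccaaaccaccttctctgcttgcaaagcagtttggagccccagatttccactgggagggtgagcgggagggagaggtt
Ins1, chr19:52264047-52264296, plus strand: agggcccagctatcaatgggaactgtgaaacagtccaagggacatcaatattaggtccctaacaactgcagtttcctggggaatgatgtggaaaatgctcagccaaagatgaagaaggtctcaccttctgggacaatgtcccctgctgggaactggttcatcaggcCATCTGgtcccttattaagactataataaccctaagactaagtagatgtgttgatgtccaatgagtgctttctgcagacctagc

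CATCTG or CAGATG occurred once in each of these 3 windows, its farthest base lying 111 bases before the start in Iapp, 87 in Ucn3 and 84 in Ins1. Of all 32851 RefSeq windows of that length, 14.4% hold it. GTTGCC or GGCAAC occurred once in Ucn3, its farthest base 92 before the start, sharing 1 base with the E box. It was not found in Iapp or Ins1, against 10.4% of all windows. TAAT or ATTA, the core bound by homeodomain factors such as PDX1 and ISL1, occurred 5 times in Iapp, 2 in Ucn3 and 3 in Ins1, and at least once in 54.9% of all windows. These matches are letters in the reference and no binding was measured. Windows were found for 5 of the 9 genes. Ppy had none of these motifs, and G6pc2 had a pair of windows with 0 and 2 matches to the E box.

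Ins1 and Ins2 are the mouse insulin genes, and Ins1 arose from Ins2 by retroposition. The Ins1 probe spans 52339385 to 52339444 of chromosome 19, and the Ins2 probe spans 149864566 to 149864625 of chromosome 7. The Ins1 level was -4.38, -4.54, -4.53 and -4.94 in control replicates 1 to 4 and -5.10, -4.74, -5.03 and -5.25 in mutant replicates 1 to 4. Control replicate 4, the only array on which the Ins1 probe was not called well above background, lay among the mutants, so the groups overlapped. The difference was -0.43 (SE 0.15, 95% interval -0.79 to -0.08, limma adjusted p = 0.828). With normexp and its offset of 50 it was -0.0499 and with the authors' deposited values -0.0844, close to 0. The intensity of the Ins1 probe was 23.0 to 46.6 units, below that offset. Ins2 had -2.07, -2.06, -1.83 and -1.42 in controls and -1.63, -2.01, -2.06 and -2.09 in mutants. The Ins2 groups overlapped throughout, with a difference of -0.10 (SE 0.17, 95% interval -0.50 to 0.29, limma adjusted p = 0.882). That interval still allows a change of 0.50 downwards. Within slide row 1 the Ins2 difference was 0.24 and within row 2 it was -0.45, of opposite sign, and without control replicate 4 it was 0.04.

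The insulin probes show what each intensity rests on. The coding parts of Ins1 and Ins2 are very similar, and the Ins1 probe lies in coding sequence up to its stop codon, so Ins2 RNA may bind to it and its level is uncertain. The Ins2 probe and the Iapp probe end near the polyadenylation signal. Capitals mark the stop codon in the Ins1 stretch and the signal AATAAA in the others, each read 5′ to 3′ from the array files.
Ins1 probe, bases 1 to 56: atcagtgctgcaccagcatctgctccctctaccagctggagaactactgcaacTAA
Ins2 probe, bases 31 to 60: cctctgcaatgAATAAAacctttgaatgag
Iapp probe, bases 31 to 60: aagtttaacAATAAAgaagaccatgggatg
The Ins1 and Ins2 probes share no run longer than 7 bases.

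Ppy encodes pancreatic polypeptide, the hormone of the islet PP cell and a relative of Pyy, and its probe, on chromosome 11 between 101961581 and 101961877, was well above background on control replicate 1 only. Its level there was -5.15, and the other controls were at -5.85, -7.57 and -6.31. The mutants were at -7.24, -7.79, -7.37 and -6.59, and the groups overlapped. The difference of -1.03 was not tested in the fit over all probes, and an exact permutation test over arrays gave p = 0.143, where 0.0286 is the smallest p that 4 against 4 arrays allow. Within slide row 1 the difference was -2.01 and within row 2 it was -0.04. Pyy, its neighbour on chromosome 11 and a hormone of distal gut endocrine cells, fell (difference -1.58, SE 0.12, limma adjusted p = 0.00203).

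Slc30a8 encodes the zinc transporter of the insulin granule. Its probe, on chromosome 15 at 52167214 to 52167273, was well above background on 1 of 8 arrays, mutant replicate 3 at -4.87, and mutant replicate 4 was at -6.19. The 4 controls lay between -8.02 and -7.29 and mutant replicates 1 and 2 at -7.52 and -8.08, so the mean difference of 1.07 rests on 2 arrays (exact permutation p = 0.257). G6pc2 encodes an islet glucose-6-phosphatase, with a probe on chromosome 2 at 69065947 to 69066006. No array reached the well-above-background call for it, with levels of -8.19 to -7.37 in controls and -8.43 to -7.00 in mutants (exact permutation p = 0.886). For both genes a level in fetal gut was mostly not measurable at this signal.

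Abcc8 encodes SUR1, the regulatory subunit of the ATP-sensitive potassium channel, which gut endocrine cells also use, and Kcnj11 encodes Kir6.2, the pore. Both Abcc8 probes were well above background on all 8 arrays, and they gave different differences. Probe A_55_P1979814 was at -0.37, -0.38, -0.46 and -0.43 in control replicates 1 to 4 and at -1.06, -1.13, -1.12 and -1.41 in mutant replicates 1 to 4. The groups were far apart relative to the SD of 0.04 in controls and 0.15 in mutants. The difference was -0.77 (SE 0.10, 95% interval -0.999 to -0.541), or 1.70-fold lower. It ranked 17 of 35472 by p, with a limma adjusted p of 0.0861, not under 0.05. Within slide rows 1 and 2 the difference was -0.72 and -0.82, and without mutant replicate 1 it was -0.81 (adjusted p 0.0716).

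Abcc8 probe A_55_P2178207 was at -0.29, -0.36, -0.34 and -0.37 in controls and at -0.69, -0.83, -0.32 and -0.88 in mutants. Mutant replicate 3 lay among the controls and the other 3 mutants below them. The difference was -0.34 (SE 0.13, 95% interval -0.64 to -0.04, limma adjusted p = 0.828). The probes lie on chromosome 7 of mm9, at 53359908 to 53359967 and 53359921 to 53359980, and share 47 of their 60 bases, so they are not independent measures of the gene. Capitals in the lines below mark shared bases, and lower case the bases of 1 probe only.
Abcc8 probe A_55_P2178207, bases 1 to 30: agcgtgccgccccGCACCTCACTTGCTTGC
Abcc8 probe A_55_P1979814, bases 31 to 60: CTGTAAATCACTTGTAAataaagaaattaa
The 13 bases of A_55_P1979814 alone run through a polyadenylation signal, and the 13 of the other probe are rich in G and C, with a GC content of 51.7% over the whole probe against 35.0%. The level of A_55_P1979814 minus that of the other probe was -0.12 to -0.02 in controls and -0.81 to -0.30 in mutants, an unequal change of -0.43 (exact two-sided permutation p = 0.0286, the smallest possible). This comparison was chosen after the values were seen. Whether GC content has a part in it was not tested.

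Kcnj11 lies next to Abcc8, with probes at 53353119 to 53353178 and 53354095 to 53354154 on chromosome 7, and was near background at both. Probe A_52_P402705 was well above background on 2 of 8 arrays, control replicate 1 and mutant replicate 2. It stood at -4.76, -5.84, -6.07 and -5.80 in controls and -6.44, -5.92, -6.41 and -6.10 in mutants, with overlapping groups (difference -0.60, exact permutation p = 0.0571). Probe A_55_P1961477 was well above background on mutant replicate 2 only, with levels of -6.49 to -6.11 in controls and -7.46 to -5.71 in mutants (difference -0.22, exact permutation p = 0.629). A difference in the pore subunit was therefore not detectable at this signal.

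**Figure D2:**
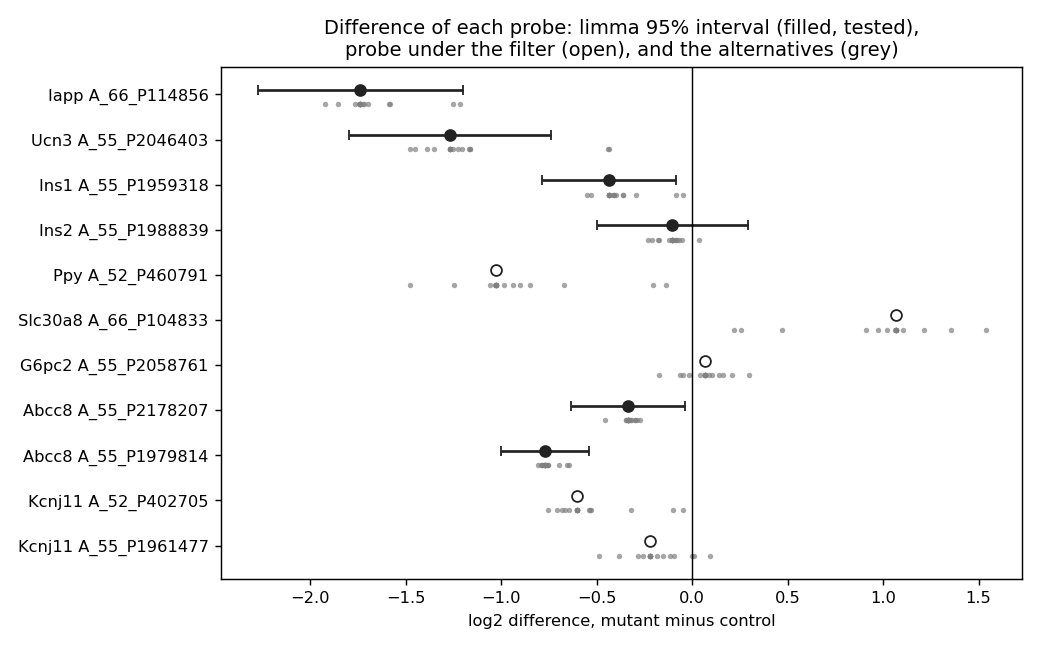
Log2 difference, mutant minus control, of each probe (horizontal axis). Filled points with bars are the limma estimate and its 95% interval for the 6 tested probes, open points are the 5 probes under the filter, and small grey points are the same difference in each alternative that has the probe. Iapp, Ucn3, Ins1 and both Abcc8 probes stay below 0 in all of these, and Ins2 crosses 0.

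The size of the Iapp difference was set against that of the other tested genes within each array, in 4 pairs with p-values adjusted over the 4. Iapp had the largest difference of the tested genes in these same arrays, so pairs built on it favour a gap. The Iapp difference less that of Ins2 was -1.63, less that of Abcc8 (probe A_55_P2178207) -1.40 and less that of Ins1 -1.30, with Iapp the lower of each pair in its difference. For each of these 3 pairs the exact permutation p was 0.0286 and the adjusted p 0.0381. Less that of the other Abcc8 probe, A_55_P1979814, it was -0.97 (exact permutation p = 0.0286, a pair added after the values were seen and outside the adjustment). Iapp and Ucn3 differed by -0.47 (exact permutation p = 0.286), which does not show that they changed alike. Without control replicate 1 the 3 adjusted p-values were each 0.0762, and without control replicate 4 they were 0.0762 for Ins1 and 0.0571 for Ins2 and Abcc8.

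For each tested gene the 3 other genes with the most similar pattern over the 8 arrays were found by Pearson correlation among tested probes. For Iapp these were Ppp1r2 (r = 0.970), Gip (r = 0.962) and Isl1 (r = 0.937). Gip is the hormone of K cells (difference -8.02, limma adjusted p = 8.38e-06), and Ppp1r2 had a difference of -0.27 without passing. Isl1 is a LIM homeodomain factor of endocrine cells, at least 3.19-fold lower in the mutants. It was not well above background there, so it was tested through the controls alone. For Ucn3 they were Hsd17b7 (r = 0.981), Acat3 (r = 0.978) and Lect2 (r = 0.968), and for Ins1 Hbp1 (r = 0.985), Nt5c3 (r = 0.967) and Reep3 (r = 0.954). For Ins2 they were Exoc8, Guca1a and Pigu (r = 0.988, 0.953 and 0.946) and for Abcc8 (probe A_55_P2178207) Brox, Aspdh and Snx32 (r = 0.925, 0.914 and 0.908). None of the 12 neighbours of Ucn3, Ins1, Ins2 and Abcc8 passed limma, with differences of -0.94 to -0.03. All arrays share 1 slide, and with 8 of them the most similar of 35472 probes will correlate highly. Both groups were pooled, so genes that are lower in the mutants correlate through that difference alone. These values therefore do not show that such genes vary together within a group.

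Other genes of islet cells, in lists that hold none of the 9, gave a mixed picture. Of the 12 beta-cell transcription factors 11 were tested, 5 lower and 6 higher, with a median difference of 5.37e-05 against 0.02 for all tested probes. The factor not tested, Pax6, had a difference of -1.37 with overlapping groups. It was well above background on 2 controls and 0 mutants. Isl1 fell, from -4.05 ± 0.18 to -6.57 ± 0.33 (SD, n = 4 each), at least 3.19-fold lower (limma adjusted p = 0.00139). No mutant array had it well above background, so it passed the filter through the controls alone and had to be lower. Pax4, an early endocrine factor, was higher by 0.70 without passing (limma adjusted p = 0.415), and the groups did not overlap. Neurod1 had a difference of 0.49, with overlapping groups, and of 0.11 without mutant replicate 1. Mafa, Nkx6-1 and Pdx1, which define beta cells in the islet, were well above background on all 8 arrays, with differences of 0.11, 0.19 and 0.00. Pdx1 and Mafa are not confined to the pancreas, so their presence does not mark beta cells in gut.

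Of 6 markers of other islet cells, which gut endocrine cells share, 5 were tested and 4 fell. Ghrl, Sst and Gcg encode ghrelin, somatostatin and proglucagon, and fell, with differences of -4.86, -4.52 and -3.42 (limma adjusted p of 8.38e-06, 6.25e-06 and 2.15e-05). Hhex, a factor of somatostatin cells, was higher by 0.12 without passing, and Irx2 was not well above background on any array. The median of the 5 was -3.42. Without mutant replicate 1 the count passing was again 4, and 1 for the transcription factors.

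Genes of glucose sensing and of secretion differed little. Of 22 listed 20 were tested, 12 lower and 8 higher, with a median of -0.02, and 0 passed limma, with 1 at an unadjusted p under 0.05. Ero1lb, an oxidoreductase of the endoplasmic reticulum, had no overlap between groups (-0.21). Other differences were those of Tmem27 (-0.52), Gipr (-0.37) and Ptprn (0.34). Slc2a2, the glucose transporter of beta cells and of enterocytes, differed by 0.11, and the prohormone convertases Pcsk1 and Pcsk2 by 0.11 and -0.08.

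Receptors of these peptides, listed together with the insulin-degrading enzyme Ide, differed little. Of 13 listed, 11 were tested, 3 lower and 8 higher, with a median of 0.08 and 0 passing limma, with 0 at an unadjusted p under 0.05. Crhr2, the receptor of urocortin 3, differed by 0.04, the insulin receptor Insr by 0.08, and Npy4r (Ppyr1 on the array), the receptor of pancreatic polypeptide, by 0.32. The calcitonin receptor Calcr, which forms the amylin receptor with Ramp proteins, was not well above background on any array, while Ramp1 and Ramp2 were on all 8. Among 25 relatives of the 9 genes, 19 were tested, 9 lower and 10 higher, with a median of 0.01, and 1 passed limma, Pyy. Igf2, a growth factor whose gene adjoins Ins2 in the genome, was higher by 0.70 without passing (limma adjusted p = 0.532), and no mutant array overlapped the controls. Abcc9 and Kcnj8, the vascular counterparts of Abcc8 and Kcnj11, differed by -0.04 and 0.14.

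**Figure D3:**
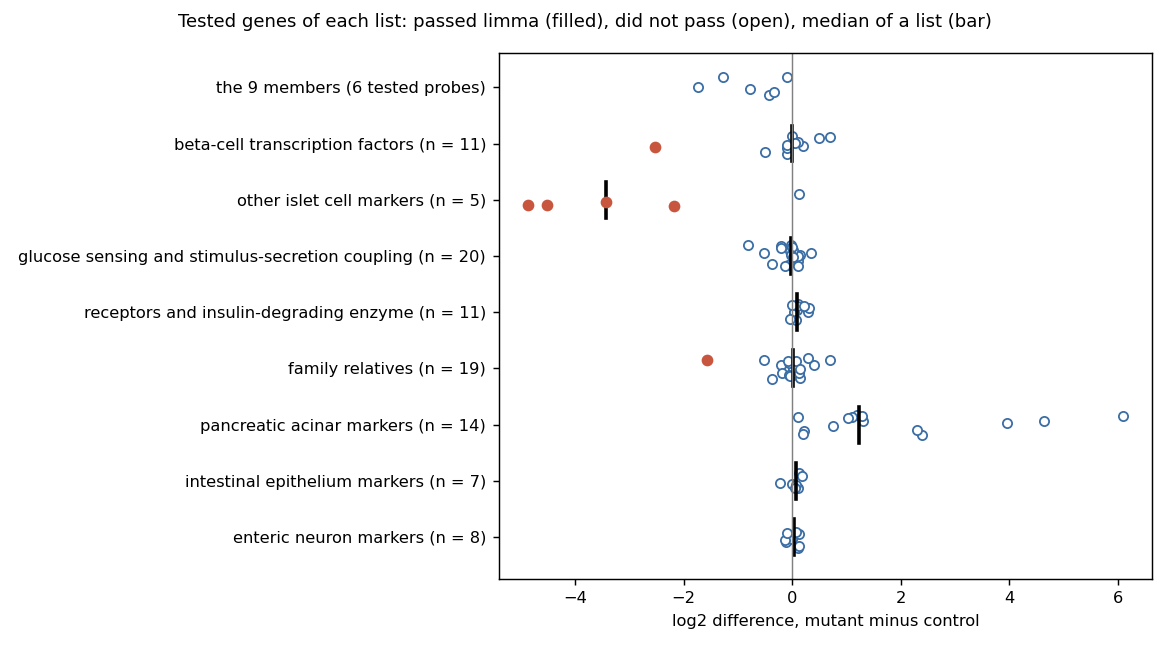
Log2 difference, mutant minus control, of each tested probe of the 9 genes and of each tested gene in the 8 lists (horizontal axis). Filled points passed limma at an adjusted p of 0.05, open points did not, and the black bar is the median of a list. The 4 markers of other islet cells that passed lie well below 0, and all 14 tested acinar markers lie above 0.

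Pancreas adjoins the fetal gut and holds the islets, so markers of its acinar cells are given beside the values above. Of 18 listed 14 were tested, and these 14 were higher in mutants, with a median of 1.24. Cela2a passed the filter through the mutants alone, so it had to differ. Of the 10 well above background on all 8 arrays 10 were higher, with a median of 1.06. Of the 4 not tested, Ptf1a (-0.51) and Pnlip (-0.10) were lower, and Prss2 (2.44) and Cuzd1 (0.02) higher. None of the 14 passed limma. At an unadjusted p under 0.05 there were 10, against 5.05% of all tested probes in either direction. In 7 the groups did not overlap, against 2.81% of all tested probes higher without overlap. The largest differences were those of the digestive enzymes Amy2a5 (6.09, limma adjusted p = 0.196), Try4 (4.63, 0.182), Cela2a (3.95, 0.153) and Cela3b (2.39, 0.649). Of the controls 3, 1, 0 and 3 had these probes well above background, so the fitted differences rest partly on background, and Cela2a was at least 3.98-fold higher against the lowest level so called. The acinar transcription factor Ptf1a and the zymogen granule protein Cuzd1 were not well above background on any array.

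The mean level of the 14 acinar markers was -3.48, -3.71, -2.90 and -3.46 in control replicates 1 to 4 and -1.60, -2.35, -1.45 and -0.57 in mutant replicates 1 to 4. The groups did not overlap, and the difference was 1.89 (exact permutation p = 0.0286). With normexp it was 1.16 and with the authors' deposited values 1.14. Over all 18 listed probes it was 1.58, and over the 10 that were well above background on all 8 arrays it was 0.95 (exact permutation p = 0.0286 for both, choices made after the values were seen). Of the 11 probes of the 9 genes, those of Slc30a8 and G6pc2 had differences of the same sign as the acinar markers (1.07 and 0.07) and the other 9 of the opposite sign. Those 9 include the probes of Ppy and Kcnj11, which were mostly at background and not tested, and the 2 Abcc8 probes, which overlap. Mutant replicates 3 and 4, the 2 highest in acinar markers, were also the 2 highest for Slc30a8 (-4.87 and -6.19), and mutant replicate 4 was highest for G6pc2 (-7.00). G6pc2 was well above background on no array and Slc30a8 on mutant replicate 3 only, so these ranks are mostly order within background. For Ins1 (-5.25) and Ins2 (-2.09) mutant replicate 4 was the lowest of the 8 arrays. The part of pancreatic RNA in the values of these 9 genes was not tested. Enteric neurons are another source in gut wall, and of their 8 markers all were tested, 4 lower and 4 higher, with a median of 0.03 and 0 passing limma, with 0 at an unadjusted p under 0.05.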

How the data were processed

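RNA from 8 small intestines was hybridised to single-colour arrays, per the labels' protocols. Per the submitters' processing notes and the file headers, the authors read them with Agilent Feature Extraction 10.10.1.1 and deposited linear spot intensity values, background-subtracted within the array and not normalised between arrays, with probes annotated on mm9. All arrays lay on 1 slide. The authors also deposited a table of intensity values whose processing is not stated. Its columns share their quartiles, with a log2 median of 7.11 in each, and it was used as an alternative.

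Outlier-flagged spots (117 to 157 per array, none of the 9 genes) were left out and spots of a probe averaged. The group difference was fitted by limma (version 3.58.1, R 4.3.3), with no covariates, on all 35472 tested probes of 55681, and adjusted over them. Single values were compared by exact two-sided permutation over the 70 splits of the arrays. The fit was checked on simulated data. The number of arrays limits precision. The limma p-values set a difference against the variation between these samples, moderated over all tested probes. The permutation p-values place a difference among those of the 70 splits. Members and lists were chosen with earlier results of these data known. The 8 lists (111 genes) were matched by the array's names, older symbols through RefSeq synonyms, using the brightest tested probe of a gene. Genes named are the 9, Rfx6, list members that passed, up to 4 others per list with the largest difference and the 3 nearest patterns. Further list members that are named (among them Mafa, Nkx6-1, Pdx1, Hhex, Irx2, Slc2a2, Pcsk1, Pcsk2, Crhr2, Insr, Calcr, Ramp1, Ramp2, Abcc9, Kcnj8, Ptf1a and Cuzd1) were picked for their roles after their values were seen. Results of some list genes that the rule would name are not reported here. Alternatives changed the background correction, normalisation, source of values, filter, probe choice, outlier spots, array weights, blocks and replicates used. The normexp background correction added an offset of 50 intensity units.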

Additional observations from a re-analysis of the deposited data

Results flagged for a closer look

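Dixon's 95% criterion was applied to 86 groups of 4 arrays, those of the 11 probes and of the listed genes with the largest differences. Chance alone would pass about 1 in 20, or 4.3, and 2 passed. Both were mutant replicate 1. At the Rfx6 probe it stood at -5.52 against -3.37 to -3.02 in the other mutants. At the Igf1 probe, a growth factor related to insulin, it stood at -1.43 against 0.72 to 0.92. No group of the 9 genes passed the criterion.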

How the results depend on the processing

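Among the 18 alternatives the count of called probes was 15 in the reported fit (14 lower and 1 higher), 24 with normexp (6 higher), 39 with array weights (29 lower, 10 higher) and 7 with the replicate block (7 lower, 0 higher). The count of higher probes was 2 with the deposited values, 4 with the slide row as a block and 0 when all 8 arrays had to be well above background. Leaving out single replicates gave 9 to 20 probes (9 to 14 lower, 0 to 8 higher), with 9 without control replicate 2 or mutant replicate 3. Of the 9 genes, 0 probes passed in the reported fit and in each fit without 1 replicate. With normexp 2 passed, Iapp (-1.21, adjusted p 0.0254, range over its alternatives 0.0254 to 0.345) and Abcc8 probe A_55_P1979814 (-0.66, 0.0468, range 0.0128 to 0.661). With array weights 2 passed, Ucn3 (-1.47, 0.0357, range 0.0357 to 0.871) and the same Abcc8 probe (-0.77, 0.0128). With 1 probe per gene name, which drops that Abcc8 probe, Iapp had an adjusted p of 0.0620. Iapp, Ucn3, Ins1 and both Abcc8 probes had negative differences in every alternative in which they were tested, but Ins1 (-0.43) was near 0 with normexp (-0.0499) and the deposited values (-0.0844). Ins2 (-0.10) reversed to 0.0386 without control replicate 4, and ranged from -0.21 to 0.0386 without 1 replicate.

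The Iapp difference less that of Ucn3 was -0.78 with normexp and -0.81 with the deposited values (exact permutation adjusted p 0.0286 in both). In these settings the Ucn3 difference shrank from -1.27 to -0.44, and that of Iapp from -1.74 to -1.21 and -1.25. The Ucn3 probe was dim, at 18.7 to 78.5 units against the normexp offset of 50. The wider gap therefore does not show that the 2 genes changed unequally. Without 1 replicate the Iapp difference less that of Ucn3 was -0.71 to -0.24, of Ins1 -1.49 to -1.05, of Ins2 -1.85 to -1.41 and of Abcc8 -1.51 to -1.27. The acinar mean difference (1.89) was 1.16 with normexp, 1.14 with the deposited values and 1.59 to 2.18 without 1 replicate, with an exact permutation p of 0.0571 without control replicate 1, 2 or 4. Called acinar markers were 0, but 1 with normexp, 2 with the slide row as a block and 1 without mutant replicate 4, hence 0 to 1 without 1 replicate. Isl1 was not called when all 8 arrays had to be well above background, where it is not tested (0 transcription factors), nor with the replicate block (0), nor was Pyy with that block (0 relatives).

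Same-numbered replicates did not deviate together (correlations of -0.09 to 0.10), so the numbers do not pair the samples. In the fit with the replicate block the Iapp adjusted p was 0.304, the Ucn3 p 0.871 and the Abcc8 p 0.661. The cause of these changes was not tested. Permutation tests were not rerun with blocks, weights or other filters. Ppy, Slc30a8, G6pc2 and Kcnj11 are limited by signal near background.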
